A study of Rattus norvegicus with 11 samples.

Results

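The paired immunoglobulin-like type 2 receptors are a family of cell surface proteins carried mainly by myeloid cells and natural killer cells. The alpha member has a tail with an inhibitory motif that recruits the phosphatases Ptpn6 and Ptpn11, whereas the beta members lack it and pair with the adaptor Tyrobp, which passes an activating signal to the kinase Syk. Both kinds bind O-glycosylated proteins such as Cd99, and the alpha receptor on neutrophils is known to restrain their recruitment into inflamed tissue. Rodents carry more than 1 beta gene.

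Of the 32623 genes in the deposited table, 4 of the 5 members sought by name had a row: RGD1561143, RGD1559588, RGD1561730 and RGD1560281, all described there as similar to the cell surface receptor FDFACT and all placed on chromosome 12. No row bore the fifth name, Pilra. The RefSeq gene table gives the identifier in the row name LOC100910669 to the gene it now calls Pilra, and that row is reported here in its place. The members were chosen on measured values of these same samples, since RGD1561143 was one of the genes that separated Nampt++ samples from controls. Differences between the groups are therefore given for the members as a description, with no test.

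The RNA came from peripheral white blood cells of male Wistar rats that were 7 weeks old when the experiment began. Collagen-induced arthritis (CIA) was raised in 4 rats by an emulsion of type II collagen in incomplete Freund's adjuvant at the left hind paw with a boost on day 7, and 3 healthy rats served as controls. Each CIA rat gave 1 sample when its Nampt was raised (Nampt++, about day 8) and 1 after it had come down (Nampt+, about day 14), as judged by the study's own PCR, so the 8 CIA samples come from 4 animals. The extraction label speaks of retinas, but 6 retina markers summed to 1.93 FPKM at most and Rcvrn was at 0 in all 11 samples. FPKM is the number of sequenced fragments scaled to transcript length and library size, and it serves here for comparing levels between genes.

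Total counts lay between 65340027 and 85819418 per sample, and the 11 haemoglobin genes took 6.84% to 42.8% of them. Samples of a group did not always stand together. Nampt read 10.1 FPKM in the library labelled Nampt++ 2, below every other sample, against 30.6 to 46.5 in the remaining Nampt++ libraries and 13.5 to 32.9 in controls. In the Nampt+ libraries it read 11.4, 14.3, 27.5 and 36.9 FPKM, so that it was lower at Nampt+ in rats 1 and 3 and higher in rats 2 and 4. The summed FPKM of 9 of 9 neutrophil markers ranged from 2078 to 13973 in controls, from 2892 to 40203 in Nampt++ and from 3680 to 15507 in Nampt+ samples, and that of 8 of 9 monocyte markers from 4216 to 10631, from 5718 to 12778 and from 5447 to 13749, with no marker of either list at 0 throughout. In whole blood cells, fewer cells of a type and less RNA per cell cannot be told apart.

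RGD1561143 (ENSRNOG00000046184, minus strand, positions 21866077 to 21923281 of chromosome 12 in the deposited table, whose genome build is not given in the sources used here) was the copy with the clearest separation between CIA and control samples. It read 3.23, 5.35 and 4.37 FPKM in the controls, 13.2, 6.21, 18.3 and 25.5 at Nampt++ in rats 1 to 4, and 5.69, 6.83, 11.5 and 11.6 at Nampt+ in the same order. Every CIA sample lay above every control in FPKM, and the Nampt++ and Nampt+ groups overlapped. The gap at Nampt+ was narrow, from 5.35 in control 2 to 5.69 in Nampt+ 1. Haemoglobin genes took 30.9% and 25.9% of the counts in these libraries, for which FPKM is not corrected. RGD1561143 held 578 of 85819418 counts in control 2 and 498 of 69413285 in Nampt+ 1. Scaled to the counts left without haemoglobin genes, control 2 comes out slightly above Nampt+ 1. The Nampt+ and control groups then overlap, whereas the Nampt++ samples stay above the controls. The means were 4.32 ± 1.06 (SD, n = 3), 15.8 ± 8.14 (SD, n = 4) and 8.90 ± 3.09 (SD, n = 4), or a difference from controls of 1.53 ± 0.44 (SE) in mean log2(FPKM + 1) for Nampt++ and of 0.86 ± 0.29 (SE) for Nampt+. Of all genes tested, 0.633% were likewise higher in each Nampt++ sample than in each control and 0.160% in each Nampt+ sample. Those shares are given for scale only, as the gene was picked on that contrast. From the Nampt++ to the Nampt+ sample it was lower in rats 1, 3 and 4 and slightly higher in rat 2 (6.21 against 6.83), with a difference between the group means of -0.67 ± 0.46 (SE, samples taken as unpaired). This count depends on the rat numbers, since with those of the Nampt+ samples of rats 1 and 2 exchanged it would be lower in all 4 rats.

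RefSeq lists RGD1561143 as an older name of Pilrb2, a beta receptor. Its promoter window, the 250 bases before and 50 bases after the transcript start, is printed because it is almost a copy of the window of Pilra, the alpha gene, although the 2 products are thought to signal in opposite directions. In the build GRCr8 the Pilrb2 window is chr12:23444329-23444628 on the minus strand and the Pilra window chr12:23452447-23452746 on the plus strand, so the genes point away from each other with 7818 bases between the windows. The third window is that of Pilrbl1, chr12:24435415-24435714 on the minus strand, the RefSeq name of the table's row LOC685157. Capitals mark GGAAGT, the core bound by Ets factors such as PU.1 of myeloid cells, and TTGCNNAA or its reverse complement, which resembles a C/EBP element.
Pilrb2: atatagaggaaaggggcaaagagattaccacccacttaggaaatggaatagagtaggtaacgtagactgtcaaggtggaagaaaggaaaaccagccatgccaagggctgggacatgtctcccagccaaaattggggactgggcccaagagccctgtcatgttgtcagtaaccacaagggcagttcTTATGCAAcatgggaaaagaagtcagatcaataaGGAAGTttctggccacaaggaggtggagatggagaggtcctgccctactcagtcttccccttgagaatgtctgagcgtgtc
Pilra: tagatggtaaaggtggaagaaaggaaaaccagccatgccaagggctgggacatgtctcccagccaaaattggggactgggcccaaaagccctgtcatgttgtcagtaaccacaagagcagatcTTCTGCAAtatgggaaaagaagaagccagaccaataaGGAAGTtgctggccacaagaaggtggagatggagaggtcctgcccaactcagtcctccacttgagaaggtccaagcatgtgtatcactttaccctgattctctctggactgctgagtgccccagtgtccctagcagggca
Pilrbl1: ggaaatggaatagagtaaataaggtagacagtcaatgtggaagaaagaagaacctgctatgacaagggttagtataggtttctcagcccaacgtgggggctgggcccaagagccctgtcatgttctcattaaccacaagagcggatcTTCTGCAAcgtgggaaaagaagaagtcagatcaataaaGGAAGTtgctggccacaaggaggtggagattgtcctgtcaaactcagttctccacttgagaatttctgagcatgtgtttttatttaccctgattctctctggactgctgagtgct
The Pilrb2 and Pilra windows were identical at 218 of 238 aligned bases (91.6%) and shared an unbroken run of 76 bases. Pilrbl1 matched Pilrb2 at 84.8% of 257 and Pilra at 84.7% of 275 aligned bases. All 3 windows held 1 GGAAGT and, 26, 29 and 30 bases before it in Pilrb2, Pilra and Pilrbl1, 1 copy of TTGCNNAA on the opposite strand. Among all 33469 promoter windows of the RefSeq table, searched on both strands, 22.6% held GGAAGT, 10.6% held TTGCNNAA and 2.46% held both. A match describes these letters only. Of the RGD copies, 1 of 4 matched a RefSeq gene, so no window is shown for RGD1559588, RGD1561730 or RGD1560281.

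RGD1559588 (ENSRNOG00000045868, plus strand, 19890749 to 19894166) was nearly as abundant but followed another order of samples. It read 5.80, 7.44 and 0 FPKM in the controls, 22.4, 4.99, 8.94 and 5.65 in Nampt++ and 3.34, 13.5, 5.07 and 13.7 in Nampt+ samples. The 3 groups overlapped, the highest sample being Nampt++ 1 and the next ones Nampt+ 4 and Nampt+ 2. Control 3 held 0 of 81464754 counts, which allows up to 3 counts or 0.0529 FPKM. The group means were 4.42 ± 3.91 (SD, n = 3), 10.5 ± 8.13 (SD, n = 4) and 8.90 ± 5.46 (SD, n = 4). The difference of Nampt++ from control in mean log2(FPKM + 1), 1.35 ± 1.08 (SE), was close to the pooled SD within the groups, 1.28. It fell to 0.37 without control 3. Its row lies across from Vom2r62, a gene on the opposite strand that was at 0 in every sample.

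The remaining copies were weakly expressed. RGD1561730 (ENSRNOG00000057141, minus strand, 20592216 to 20660304) read 0.878, 1.52 and 0.859 FPKM in the controls, 0.895, 1.47, 0.119 and 0.131 in Nampt++ and 1.54, 0.345, 0.0787 and 0.419 in Nampt+ samples. Its means of 1.09 ± 0.377 (SD, n = 3), 0.653 ± 0.652 (SD, n = 4) and 0.597 ± 0.648 (SD, n = 4) were highest in controls, and the groups overlapped. The values were low in both samples of rats 3 and 4 and in Nampt+ 2, and at least 0.859 in the other samples.

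RGD1560281 (ENSRNOG00000059625, plus strand, 20667601 to 20677689) had no counted read in either sample of rat 3 or of rat 4, where 0 counts allow up to 0.00707 to 0.00924 FPKM. It read 0.254, 0.315 and 0.0649 FPKM in the controls, 1.57 and 0.155 in Nampt++ 1 and 2 and 0.341 and 1.13 in Nampt+ 1 and 2. Counts behind these values were 90, 134 and 27 in the controls and 586, 63, 118 and 399 in Nampt++ 1, Nampt++ 2, Nampt+ 1 and Nampt+ 2, and the libraries of rats 3 and 4 were 65340027 to 85449911 counts deep. Group means of 0.211 ± 0.130 (SD, n = 3), 0.432 ± 0.765 (SD, n = 4) and 0.368 ± 0.534 (SD, n = 4) had SDs above the means in both CIA groups. The plot of FPKM by sample shows this split beside the levels of RGD1561143.

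**Figure D1:**
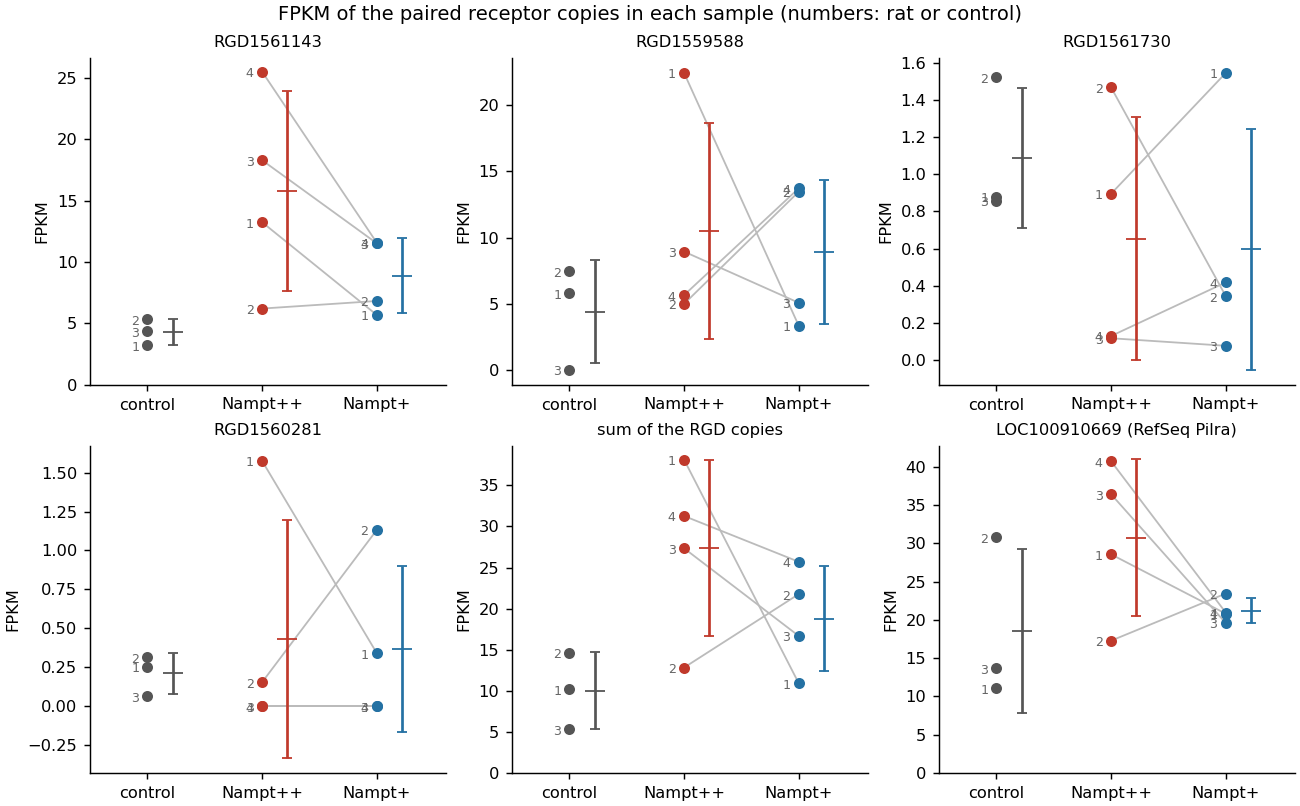
FPKM (vertical axes) of the RGD copies, their sum and LOC100910669 in control, Nampt++ and Nampt+ samples; points are samples with their replicate or rat number, grey lines join the samples of a rat, and the bar beside each group is mean ± SD (n = 3, 4 and 4). In FPKM, which is not corrected for haemoglobin, all 8 CIA samples of RGD1561143 lie above its controls. RGD1560281 is at 0 in rats 3 and 4.

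Summed over the RGD copies, expression was 10.2, 14.6 and 5.29 FPKM in controls, 38.1, 12.8, 27.3 and 31.3 in Nampt++ and 10.9, 21.8, 16.7 and 25.7 in Nampt+ samples. Nampt++ 2 lay inside the range of the controls, as did Nampt+ 1, so both CIA groups overlapped the controls. The sum averaged 10.03 ± 4.67 (SD, n = 3), 27.4 ± 10.7 (SD, n = 4) and 18.8 ± 6.41 (SD, n = 4) FPKM, and the difference in mean log2(FPKM + 1) was 1.36 ± 0.50 (SE) for Nampt++ against control, 0.87 ± 0.46 (SE) for Nampt+ against control and -0.49 ± 0.41 (SE) for Nampt+ against Nampt++. Without the library labelled Nampt++ 2, which had the lowest Nampt, the first of these was 1.68 and the last -0.80. Without control 3, in which RGD1559588 was at 0, the Nampt+ difference from control fell to 0.52. The edgeR fold change of the summed counts was smaller, 0.92 ± 0.41 (SE) for Nampt++ against control, on a scale where the long rows RGD1561730 and RGD1560281 weigh more.

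The copies did not rise and fall as a unit. RGD1561143 was the highest of the copies in 6 samples and RGD1559588 in 5. RGD1561143 made up 31.8% to 82.6% of the FPKM sum in controls, 34.7% to 81.5% in Nampt++ and 31.4% to 69.1% in Nampt+ samples. Its share thus overlapped between all groups, whereas its FPKM did not overlap between controls and either CIA group. For Nampt+ the gap was narrow and is lost when haemoglobin counts are left out. RGD1559588 made up 0% to 61.8% of the sum. RGD1561730 held 8.63% to 16.2% of the sum in controls and 0.420% to 14.1% in CIA samples, and in counts it reached 44.1% in control 3 and 42.5% in Nampt+ 1. Reads per FPKM put the counted length of RGD1561730 at 5395 bases and that of RGD1560281 at 4967 bases, against 1263 for RGD1561143 and 697 for RGD1559588.

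**Figure D2:**
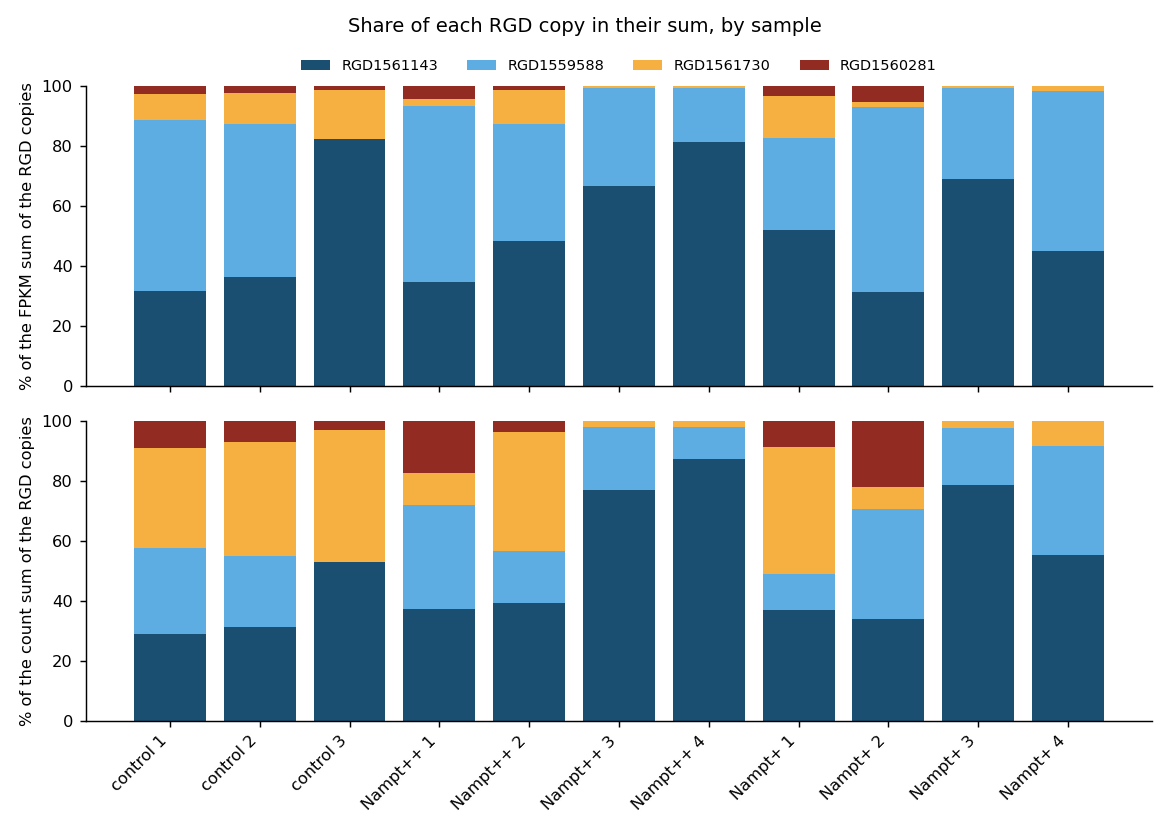
Stacked bars give the share (vertical axis, %) of each RGD copy in their sum for each of the 11 samples, in FPKM (top) and in counts (bottom). Nampt++ 1 and Nampt+ 2 look alike, as do Nampt++ 2 and Nampt+ 1, and RGD1560281 is missing from rats 3 and 4.

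The makeup of the sum was set side by side between the samples of each rat. The part of the FPKM sum that would have to pass between copies to turn a Nampt++ sample into a Nampt+ sample was 2.26 percentage points within rat 3, but 29.2 within rat 1, 26.9 within rat 2 and 36.5 within rat 4. Nampt++ 4 was nearest to Nampt+ 3, at 12.4 points, and not to the sample of its own rat. Nampt++ 1 was nearest to Nampt+ 2, at 4.10 points, and Nampt++ 2 was nearest to Nampt+ 1, at 8.30 points. Deviations from the group means across genes correlated likewise at 0.27 and 0.61 between these crossed samples and at -0.27 and -0.24 within rats 1 and 2 as numbered. The neutrophil level moved along with it: the mean log2(FPKM + 1) of the neutrophil list was 8.22 in Nampt++ 1 and 7.44 in Nampt+ 2, against 5.35 in Nampt++ 2 and 5.67 in Nampt+ 1. Its part in the likeness was not tested, and the within-rat directions given here follow the labels.

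The samples in which each copy was high also differed in their other leukocyte genes. Over the 11 samples, 8 of which are pairs from 4 rats, RGD1559588 ran with the neutrophil list (S100a8, S100a9, Mmp8, Mmp9, Csf3r, Cxcr2, Camp, Ngp and Fpr1), at Pearson r = 0.89 and Spearman rho = 0.96, and at r = 0.85 without the 2 samples farthest from the list's median. RGD1561143 stood at r = 0.43 and rho = 0.47 with that list, at 0.47 and 0.35 with the monocyte list, and at -0.73 and -0.63 with 4 of 5 erythroid markers. Without the 2 farthest samples its r was 0.23, 0.83 and -0.84 with these lists, so its values for neutrophils and monocytes rest on a few samples. RGD1560281 stood at -0.77 and -0.56 with the monocyte list, and at r = -0.31 without the 2 farthest samples. The RGD sum stood at r = 0.82 and rho = 0.75 with the neutrophil list and at 0.08 and 0.16 with the monocyte list. With the B cell list it stood at -0.66 and -0.63. Without the 2 farthest samples the r of the sum was 0.60, 0.74 and -0.61 with these lists. These values describe the samples and carry no p-value, and the part of cell composition in the levels of the copies was not tested.

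The genes most like the RGD sum, among 11240 genes with a mean of at least 1 FPKM, were Ccrl2, a chemerin-binding receptor, at Pearson r = 0.969, Rtp3 at 0.969, Trem3, a myeloid receptor that couples to Tyrobp, at 0.949, the transcriptional repressor Bcl6 at 0.941 and LOC100910636 at 0.936, all over 11 samples. Ccrl2 averaged 125 ± 62.9 (SD, n = 3), 269 ± 98.7 (SD, n = 4) and 199 ± 57.4 (SD, n = 4) FPKM in control, Nampt++ and Nampt+ samples. LOC100910636 lies in the cluster itself, on the strand opposite to LOC100910669, whose end it overlaps. Taken alone, the copies had other nearest genes, named here after their values were seen: Tspan8 for RGD1559588 at 0.947, AABR07009105 for RGD1561143 at 0.940, Asns for RGD1560281 at 0.934 and LOC108348155 for RGD1561730 at 0.882.

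LOC100910669 (ENSRNOG00000033017, plus strand, 21678580 to 21690678), the row whose identifier RefSeq gives to Pilra, was more abundant than any RGD copy on the FPKM scale. It read 11.05, 30.8 and 13.7 FPKM in the controls, 28.6, 17.3, 36.4 and 40.7 in Nampt++ and 20.8, 23.5, 19.6 and 20.96 in Nampt+ samples. The Nampt+ samples were close together, whereas control 2 lay within the Nampt++ range. Means were 18.5 ± 10.7 (SD, n = 3), 30.8 ± 10.3 (SD, n = 4) and 21.2 ± 1.62 (SD, n = 4), and the difference in mean log2(FPKM + 1) of 0.77 ± 0.50 (SE) for Nampt++ against control became 1.19 without control 2. In the deposited table it lies 175399 bases from RGD1561143 and the 2 are read towards each other, whereas RefSeq's Pilra and Pilrb2 windows point apart at 7818 bases. The row placed like that beside RGD1561143 is AABR07035776, at 8132 bases, whose RefSeq match is another gene, so it was not settled which row holds the reads of Pilra. LOC100910669 exceeded the RGD sum in the controls and in 3 of 4 Nampt++ samples, where Nampt++ 1 was the exception with a sum of 38.1 against 28.6 FPKM. Among the Nampt+ samples the exception was Nampt+ 4, with a sum of 25.7 against 20.96 FPKM.

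Chromosome 12 held 15 rows described as FDFACT or as a paired immunoglobulin-like type 2 receptor, spread over 2.24 Mb from 19714324 to 21950085, of which the RGD copies are 4. By mean FPKM over all samples RGD1561143 was the fifth and RGD1559588 the sixth of them, and RGD1560281 was the lowest. This family list was drawn up after the table had been read. In the edgeR fit over all genes, a gene was called when the ratio of its group mean FPKMs was above 2 or below 0.5 and its unadjusted p below 0.05. By this rule 77 of 11219 genes (0.686%) were called in Nampt++ against control, 56 of 11269 (0.497%) in Nampt+ against control and 72 of 11219 (0.642%) in Nampt+ against Nampt++. Benjamini-Hochberg adjustment left 0 in edgeR in each comparison, with 176, 98 and 256 genes at an unadjusted p below 0.05, whereas DESeq2 left 5, 4 and 5. These edgeR counts are smaller than a threshold of 0.05 would pass if no gene differed.

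The RGD copies are not described by these calls, having been chosen on such values, and RGD1561730 and RGD1560281 were also below the minimum of 1 FPKM. Of the 11 family rows that are not RGD copies, 10 were tested. LOC681182, another beta-like row, rose in Nampt++ samples against controls (log2 fold change 1.29 ± 0.38, SE, called in edgeR's quasi-likelihood test, Benjamini-Hochberg adjusted p = 0.99992) and lost the call without Nampt++ 4. It read 2.01, 1.37 and 3.52 FPKM in controls and 3.17, 3.46, 6.16 and 9.54 in Nampt++ samples. Pilrb was the only one of the 10 that was higher in each Nampt++ sample than in each control (0 to 0.984 FPKM in controls and 1.33 to 5.72 in Nampt++), but was not called by edgeR. The share of all tested genes with such a gap was 0.633%. Apart from LOC681182, the other 9 rows were not called by edgeR in either comparison with controls. Under DESeq2, Pilrb and LOC680910 higher and LOC108348155 lower also met both thresholds in Nampt++, and LOC108348155 in Nampt+, each with an adjusted p of 0.99998 or more. DESeq2 called 121 of 11219 genes in Nampt++ and 73 of 11269 in Nampt+ against control. Of the 10, 8 had a fold change above 0 in each comparison with controls. Without control 2 the alpha-like rows LOC100910669, AABR07035776 and AABR07035722 were called higher in Nampt++ (log2 fold changes 1.44, 2.15 and 1.24). Without control 3 or Nampt++ 2 LOC108348155 was called lower (-1.73 and -2.13). Pilrb was called higher without control 3 (1.69) and LOC680910 without Nampt++ 2 (1.59). In Nampt+ against control, AABR07035776 was called higher without control 2 (1.73) and LOC681182 without Nampt+ 2 (0.89). LOC108348155 was called lower there without control 3 or Nampt+ 1 (-1.90 and -2.33). In each case more genes were called over the table as a whole. Nampt++ against control had 462 of 11303 genes without control 2, 142 of 11140 without control 3 and 184 of 11273 without Nampt++ 2. Nampt+ against control had 136 of 11350 without control 2 and 112 of 11198 without control 3. It had 98 of 11260 without Nampt+ 1 and 75 of 11422 without Nampt+ 2. The median log2 fold change of the 10 was 0.57 for Nampt++ and 0.56 for Nampt+ against control, and -0.31 for Nampt+ against Nampt++, beside medians of 0.0018, -0.0027 and -0.00021 over all genes tested.

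**Figure D3:**
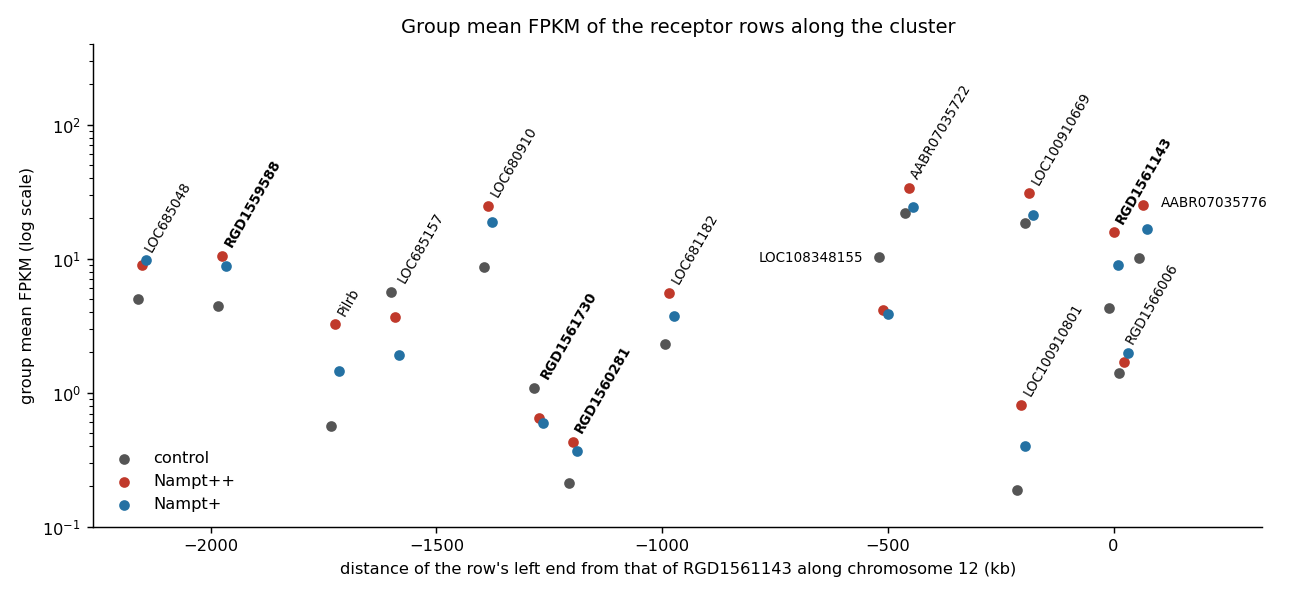
Group mean FPKM (vertical axis, log scale) of the 15 receptor rows against the distance of each row's left end from that of RGD1561143 (horizontal axis, kb); the RGD copies are in bold, and controls have n = 3, Nampt++ and Nampt+ n = 4. RGD1561730, LOC108348155 and LOC685157 have their highest mean in controls, LOC685048 and RGD1566006 in Nampt+, and the remaining 10 rows in Nampt++.

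Some of these rows may share reads, and the sources used here do not say how reads that fit several copies were counted. RGD1566006 lies inside the span of RGD1561143 on the same strand, at 0.53 to 4.21 FPKM. RGD1559588 and LOC685048 had nearly equal FPKM: where RGD1559588 was above 0, the ratio of LOC685048 to it had a median of 0.96 and lay between 0.87 and 1.31 in 9 of 10 samples. The exceptions were opposite in kind. In Nampt++ 2 LOC685048 read 0.17 against 4.99 FPKM, and in control 3 it read 2.59 against 0. Values of single copies are therefore uncertain, and the zero of RGD1559588 in control 3 in particular. The RGD sum leaves out LOC685048 and RGD1566006 and holds that zero, so it is open to the same doubt.

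RGD1561143 had its closest family likeness in AABR07035776, an alpha-like row on the opposite strand that starts 8132 bases beyond its end, at r = 0.89 over the 11 samples. AABR07035776 read 6.72, 18.3 and 5.33 FPKM in controls, 19.9, 11.8, 35.0 and 34.3 in Nampt++ and 10.7, 16.8, 17.6 and 21.9 in Nampt+ samples, 1.22 to 3.42 times RGD1561143. RGD1561730 had it in LOC108348155, at r = 0.88, a row with means of 10.4 ± 3.55 (SD, n = 3) FPKM in controls, 4.13 ± 2.93 (SD, n = 4) in Nampt++ and 3.87 ± 3.62 (SD, n = 4) in Nampt+ samples. Among the RGD copies themselves, r was 0.42 for RGD1561143 with RGD1559588 and -0.70 for RGD1561143 with RGD1561730. It was -0.21 for RGD1559588 with RGD1561730. RGD1560281 stood at r = 0.51 and rho = 0.20 with RGD1559588 and at 0.27 and 0.67 with RGD1561730. With RGD1561143 it stood at -0.14 and -0.37.

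**Figure D4:**
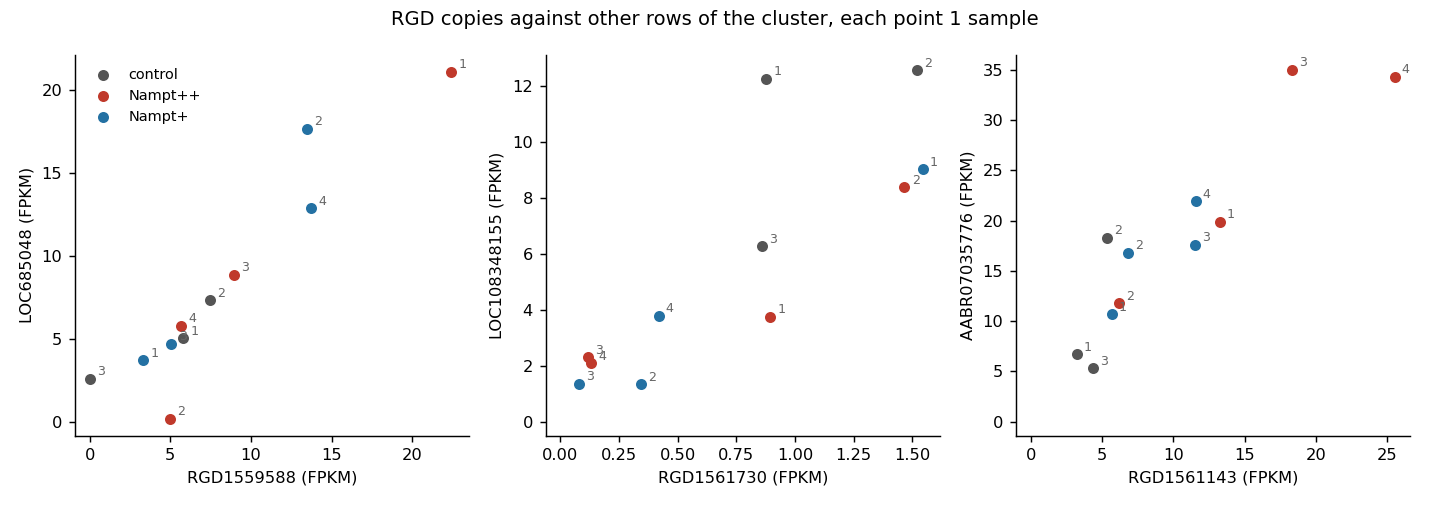
FPKM of RGD1559588, RGD1561730 and RGD1561143 (horizontal axes) against LOC685048, LOC108348155 and AABR07035776 (vertical axes); each point is 1 sample with its number. RGD1559588 and LOC685048 lie near a line of equal values except in control 3 and Nampt++ 2.

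Within 250 kb of an RGD copy the table placed 34 rows, 8 of the family and 26 others, of which 20 averaged at least 1 FPKM. The 13 expressed rows outside the family were AABR07035561, LOC100910636, Mepce, C12H7orf61, Ppp1r35, RGD1566138, LOC100910540, LOC100910581, LOC102550456, Agfg2, Sap25, Lrch4 and Mospd3. Of these, 12 were tested in each comparison with controls and 13 in Nampt+ against Nampt++. None was called by edgeR, and 0 had an unadjusted p below 0.05. Over all genes only 0.497% to 0.686% were called, so a count of 0 among so few rows says little about them. Lrch4 averaged 49.3 ± 16.1 (SD, n = 3), 50.6 ± 13.4 (SD, n = 4) and 50.2 ± 17.2 (SD, n = 4) FPKM in control, Nampt++ and Nampt+ samples. LOC100910636 averaged 5.02 ± 2.31 (SD, n = 3), 8.61 ± 2.53 (SD, n = 4) and 7.495 ± 2.75 (SD, n = 4) FPKM. The median log2 fold change of the 12 rows tested was 0.08 for Nampt++ against control, beside 0.57 for the tested family rows outside the RGD copies.

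The other genes of the pathway were taken from a list of ligands, adaptors, kinases, phosphatases and related receptors, of which 43 had a row and Sirpb1, Lilrb3l and Pecam1 had none. Of the ligands, Cd99 was well expressed, with means of 43.3 ± 8.58 (SD, n = 3), 45.7 ± 24.003 (SD, n = 4) and 31.9 ± 9.27 (SD, n = 4) FPKM in control, Nampt++ and Nampt+ samples. Npdc1 averaged 1.72, 1.45 and 2.26 FPKM and Colec12 0.883, 1.16 and 0.921, while Pianp averaged at most 0.167 and Clec4g was at 0 in every sample. No ligand that was tested was called.

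The adaptor Tyrobp was among the most abundant genes of the list, at 603, 1109 and 382 FPKM in the controls, 1801, 515, 1320 and 1052 in Nampt++ and 558, 1019, 737 and 1035 in Nampt+ samples. Its order resembled that of the RGD sum, with Nampt++ 1 highest and control 3 lowest, and its log2 fold change in Nampt++ against control was 0.54 ± 0.56 (SE, not called in edgeR's quasi-likelihood test, adjusted p = 0.99992). Hcst, an adaptor of other activating receptors, read 70.9 ± 12.4 (SD, n = 3), 69.6 ± 4.46 (SD, n = 4) and 70.0 ± 21.3 (SD, n = 4) FPKM. The phosphatase Ptpn6 averaged 71.97, 81.3 and 76.9 FPKM and Ptpn11 15.9, 15.3 and 13.3, and neither was called.

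Syk, the kinase that binds the phosphorylated adaptor, was the only list gene called. It read 43.8, 41.5 and 16.6 FPKM in the controls, 19.6, 39.7, 50.8 and 49.4 in Nampt++ and 10.4, 6.38, 15.03 and 18.6 in Nampt+ samples. All Nampt+ samples lay below all Nampt++ samples, as for 0.321% of the genes tested. Syk fell in Nampt+ against Nampt++ samples (log2 fold change -1.67 ± 0.33, SE, edgeR adjusted p = 0.99956) and against controls (-1.58 ± 0.43, SE, edgeR adjusted p = 0.99999) by the rule for calls. DESeq2 gave an adjusted p = 0.00744 for the first and an adjusted p = 0.395 for the second. It was lower in the Nampt+ sample of each rat, at the time when RGD1561143 and LOC100910669 were lower in 3 of 4 rats.

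In Nampt++ against control 0 of 37 tested list genes were called by edgeR, 0 had an unadjusted p below 0.05, and DESeq2 called 0. Of the 37, 28 had a fold change above 0, with a median of 0.24 on the log2 scale beside 0.0018 for all genes. This count rested on control 2, in which Tyrobp, Lyn, Trem3, Fcgr2b and Cd300a were highest among the controls. Without it 7 list genes were called, among them Tyrobp, Lyn, Trem3, Fcgr2b and Cd300a higher and Siglec10 lower, each at an adjusted p of 0.546. Calls rose over the whole table in that fit, to 462 of 11303 genes from 77 of 11219 with all samples. Without Nampt++ 1 the receptor Cd300lb was called lower, and without Nampt++ 2 Trem3 was called higher. In Nampt+ against control 1 of 36 and in Nampt+ against Nampt++ 1 of 37 list genes were called, Syk in both.

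**Figure D5:**
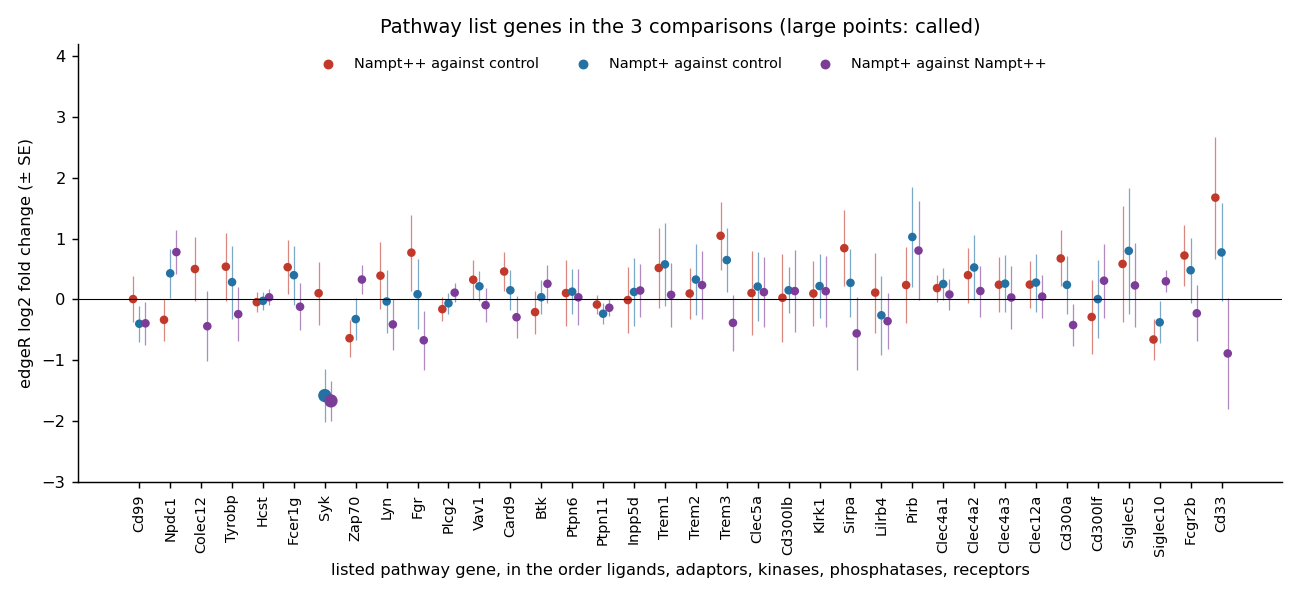
edgeR log2 fold changes (vertical axis, bars ± SE) of tested pathway list genes (horizontal axis) in the 3 comparisons, with large points for called genes. Only the 2 Syk points, at -1.58 and -1.67, are called, and most Nampt++ against control points lie above 0.

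The other cell types varied widely within each group. The summed FPKM of 7 of 7 T cell markers ranged from 421 to 1050 in controls, 507 to 806 in Nampt++ and 304 to 921.9 in Nampt+ samples, and that of 4 of 5 B cell markers from 127 to 634, 199 to 273 and 146 to 307. The 5 NK cell markers summed to 125 to 377, 42.7 to 173 and 51.3 to 217, 4 of 5 erythroid markers to 595 to 1306, 279 to 1670 and 535 to 2074, the 5 platelet markers to 3494 to 6739, 4787 to 9648 and 1723 to 15706, and the 5 basophil and mast cell markers to 10.7 to 36.4, 7.91 to 16.2 and 10.8 to 63.9. The ranges of every list overlapped between the groups.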

How the data were processed

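The deposited table was made by the authors from poly(A) RNA sequenced in 150 bp read pairs, with the second cDNA strand marked by U. Cutadapt 1.9, HISAT2 2.0.4, StringTie 1.3.4 and Gffcompare 0.9.8 are named in the methods or processing notes. The genome build, the annotation and the treatment of multi-mapping reads are not given in the sources used here. For each gene and sample the authors deposited a whole-number count, not normalized, and an FPKM, in which 0.0001 stands for 0.

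Members were found by name, and the members and lists were chosen with earlier results of these data known. Levels and differences of members were taken on FPKM, as mean log2(FPKM + 1), with no test. The SEs of these differences take all samples as independent and do not use the pairing by rat. All genes with a mean of at least 1 FPKM over the samples compared were fitted with edgeR 4.0.16 (quasi-likelihood, TMM, R 4.3.3, only the groups compared, no covariate). A call needed a ratio of mean FPKM above 2 or below 0.5 and an unadjusted p below 0.05, with Benjamini-Hochberg adjusted p beside it. The script was tested on simulated data. DESeq2 1.42.0, no filter, other scalings, leaving out samples and a block by rat were alternatives. Same-numbered CIA samples come from 1 rat per the labels, though their deviations from the group means correlated at -0.27, -0.24, 0.23 and 0.09, and the block by rat was an alternative. The family list and the exchanged rat numbers were chosen after seeing the data. Named were all members, list genes that were called, ligands, adaptors and phosphatases, genes within 250 kb, and the 5 genes most like the RGD sum. Promoters came from RefSeq (GRCr8). Samples of a group are different rats, and no 2 were identical. Intervals for counts of 0 cover counting error only. The values of 1 list gene are not reported here, and its point is left out of the plot of fold changes.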

Additional observations from a re-analysis of the deposited data

Results flagged for a closer look

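Among 12 groups of 4 samples, for the members, their sum and LOC100910669, 1 value stood apart from the others of its group by Dixon's test. RGD1560281 read 1.57 FPKM in Nampt++ 1, against 0.155, 0 and 0 in the other Nampt++ samples, a gap of 0.902 of the group's range. Chance marks about 1 group in 20. Of the CIA samples only Nampt+ 2, at 1.13 FPKM, came near it.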

How the results depend on the processing

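The difference in the RGD sum kept its direction in each comparison under every alternative run, from 1.01 to 1.68 for Nampt++ against control, 0.52 to 1.17 for Nampt+ against control and -0.80 to -0.27 for Nampt+ against Nampt++ when 1 sample was left out. Of the single copies, RGD1561143 kept its direction in all of these (1.26 to 1.89, 0.71 to 1.03 and -1.02 to -0.40), whereas RGD1560281 changed sign in each comparison (-0.20 to 0.25, -0.13 to 0.23 and -0.25 to 0.31) and RGD1559588 and RGD1561730 in Nampt+ against Nampt++ (-0.44 to 0.24 and -0.29 to 0.18). Summing all 15 family rows in place of the RGD copies gave 0.87, 0.43 and -0.43, an alternative chosen after seeing the data, and edgeR on the summed RGD counts gave 0.92, 0.58 and -0.33. The counts of genes called were less stable, and the cause was not tested. In Nampt++ against control 77 genes became 121 with DESeq2, 306 with no filter on FPKM and 53 to 462 with 1 sample left out, and 0 list genes became 0 to 7. In Nampt+ against control 56 became 261 with no filter and 49 to 136, and 1 list gene remained 1 throughout. In Nampt+ against Nampt++ 72 became 295 with no filter and 58 to 165, and 1 list gene became 1 to 2. With a replicate block by rat, 56 genes were called in Nampt+ against Nampt++, and 97 with the block after the numbers of rats 1 and 2 were exchanged, an alternative chosen after seeing the data. The log2 fold change of the RGD sum was -0.43 ± 0.38 (SE) with the block and -0.42 ± 0.20 (SE) with the exchanged block. The exchange was chosen because those samples were alike, which by itself lowers the SE, so the smaller SE lends the result no weight. RGD1560281 read 0.58 and 0.62 with the block and the exchanged block, against -0.01 in mean log2(FPKM + 1). The edgeR fit without the block gave 0.47 ± 2.14 (SE). In mean log2(FPKM + 0.1) the difference was 0.09, and with upper quartile scaling 0.11. Its sign was therefore not settled. The block kept the call of Syk. At the depths here, the zeros of RGD1560281 and RGD1559588 allow at most 3 counts.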
